A study of Mus musculus with 17 samples.

Results

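The genes Gad1, Gad2, Slc32a1, Dlx1, Lhx6, Pvalb, Calb2, Reln, Nos1 and Erbb4 are markers of GABAergic interneurons, and they were taken by gene symbol from the 55450 genes counted by RNA-seq in 17 libraries of mouse hippocampus. All 10 were found, and 10 of 10 passed the filter on low counts, with between 131 reads (the lowest library for Lhx6) and 12007 reads (the highest for Gad1). Between epileptic and control mice given the control guide, Pvalb had the lowest and Nos1 the highest log2 fold change, at -1.01 (SE 0.33, n = 6 and 5) and 0.68 (SE 0.27), but with edgeR 0 of the 10 genes passed the threshold of an adjusted P of 0.05, against 11% of all genes tested. The general markers Gad1, Gad2 and Slc32a1 had log2 fold changes of -0.12, 0.27 and 0.14, none past the threshold. Between epileptic mice labelled sgKcna1 and sgLacZ, 0 of the 10 genes passed the threshold with edgeR, against 0% of all genes.

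Interneurons are the inhibitory cells of the hippocampal circuit. They make the transmitter GABA from glutamate, load it into synaptic vesicles and release it onto pyramidal cells, granule cells and other interneurons. They fall into classes that are told apart by calcium-binding proteins, neuropeptides and enzymes, and the loss of some of these classes is a well known feature of the hippocampus in temporal lobe epilepsy.

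The libraries came from hippocampi of adult C57BL/6J mice and fell into 3 groups. Epileptic mice had received kainic acid, an agonist of glutamate receptors, in the right amygdala, a model of temporal lobe epilepsy that begins with status epilepticus and goes on to recurrent seizures. They were then given either sgKcna1, a guide RNA for the promoter of the potassium channel gene Kcna1 (n = 6), or sgLacZ, a guide for a bacterial gene that mice lack (n = 6). Control mice were not epileptic and were given sgLacZ (n = 5). According to the study's methods the guides were carried by AAV9 vectors together with dCas9-VP64, an activator of transcription that binds DNA without cutting it, which was placed under a doxycycline-dependent promoter, and mice of every group received a guide. The transactivator that responds to doxycycline was driven by a Camk2a promoter, which favours excitatory neurons, so the interneurons themselves were not the cells aimed at. In the study's plan, sham and epileptic mice were given food with doxycycline before the hippocampi were collected. Vectors were injected in the right ventral hippocampus, and the sample titles do not give the side that was sequenced. There was no control group with sgKcna1. In bulk tissue, fewer interneurons and less RNA per interneuron cannot be told apart.

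The libraries held 11839240 to 28311328 reads in genes. Levels are given as CPM, that is, reads scaled to a common library size, and 3 reads, taken as the floor of detection, corresponded to 0.106 to 0.253 CPM, well below every level reported here. Kcna1 itself was at 25.5, 33.7, 34.6, 37.6 and 44.0 CPM in control, between 16.9 and 56.7 CPM (median 27.6) in epileptic sgLacZ and between 13.9 and 132.5 CPM (median 19.1) in epileptic sgKcna1 libraries. Only replicate 12 of the last group lay above the control values. The other libraries of that group were at 13.9, 15.1, 18.7, 19.5 and 29.5 CPM. With replicate 12 included, the difference between the epileptic groups was 0.32 on the log2 scale (SE 0.47, adjusted P = 0.706, edgeR). The group is therefore called the libraries labelled sgKcna1. Levels of Xist and Y-linked genes, which are not in the labels, gave 2 female and 3 male mice in the control group, 4 and 2 in epileptic sgLacZ, and 2 and 4 in the libraries labelled sgKcna1.

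The 10 genes were present in every library, and together they summed to between 803 and 948 CPM in control, 680 and 1132 CPM in epileptic sgLacZ, and 656 and 988 CPM in the libraries labelled sgKcna1. Epileptic sgLacZ replicate 4, the deepest library and the one with the smallest share of unmapped reads (11.0%), had the highest level among all 17 libraries for 6 of the 10 genes (Gad1, Gad2, Slc32a1, Lhx6, Nos1 and Erbb4). Replicate 12 of the libraries labelled sgKcna1, the shallowest and the one with the largest unmapped share (41.5%), was the highest for Calb2 and the lowest for Erbb4. Values without both of these libraries are given in each comparison.

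Promoter sequences are shown for the 3 genes that had an unadjusted P under 0.05 in any comparison, to show how unlike their start sites are. RefSeq promoters were matched for 9 of the 10 genes, at 12 start sites, all on the GRCm38.p6 assembly. Each sequence holds the 100 bases before the gene's first start site, 5′ to 3′ on the gene's strand, and capitals mark CG dinucleotides, the letters in which vertebrate DNA is methylated.
Pvalb: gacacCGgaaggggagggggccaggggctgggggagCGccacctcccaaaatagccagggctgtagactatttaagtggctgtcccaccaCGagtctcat
Nos1: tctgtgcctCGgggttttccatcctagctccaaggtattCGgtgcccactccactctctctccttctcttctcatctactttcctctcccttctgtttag
Reln: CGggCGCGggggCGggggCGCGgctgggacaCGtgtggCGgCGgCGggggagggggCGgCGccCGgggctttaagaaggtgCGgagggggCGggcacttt
The Pvalb window is chr15:78206401-78206500 on the minus strand, the Nos1 window chr5:117866739-117866838 on the plus strand and the Reln window chr5:22344706-22344805 on the minus strand. They hold 3, 2 and 15 CG dinucleotides, respectively, against a median of 3 (quartiles 1 and 8) over 32851 RefSeq promoters. Among the other matched start sites, Gad1 and Dlx1 had 13 each, Gad2 and Erbb4 had 7 each, Slc32a1 had 5, a further Pvalb start had 14, and the 3 starts of Lhx6 had 3, 11 and 2. In wider windows of 300 bases, read on both strands, the letters TATAAA occurred for Gad1 and Lhx6 and in 13.6% of all promoters, and the homeodomain core TAATTA occurred at none of the 12 start sites and in 5.29% of all promoters. These matches are descriptions of the letters only.

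Before the groups were compared, the levels of the genes were set side by side per kilobase of transcript, a scale on which different genes can be compared. In control libraries Pvalb stood at 114.8 ± 14.8 CPM per kilobase (SD, n = 5) and Gad1 at 101 ± 5.26 (SD, n = 5), and the values of these neighbours overlapped. Calb2 followed at 58.3 ± 14.6, Slc32a1 at 27.0 ± 3.68, Gad2 at 16.3 ± 1.06 and Dlx1 at 9.84 ± 0.931, each apart from its neighbours. Nos1 (3.20 ± 0.517), Reln (3.05 ± 0.204), Lhx6 (2.96 ± 0.464) and Erbb4 (2.56 ± 0.131) came last. The values of neighbours in this order overlapped, whereas those of Reln and Erbb4 did not. In epileptic sgLacZ libraries Gad1 was at 93.1 ± 14.7 and Pvalb at 56.9 ± 34.4 CPM per kilobase (SD, n = 6). In the libraries labelled sgKcna1 they were at 92.1 ± 8.79 and 80.7 ± 39.4 (SD, n = 6). The mean of Gad1 stood first in both groups, but the values overlapped. Pvalb was above Gad1 in epileptic sgLacZ replicate 5 (122 against 84.8) and in sgKcna1 replicates 3 (149 against 103) and 12 (108 against 89.6). Slc32a1 and Dlx1 overlap genes on the opposite strand (Gm14204 and Dlx1as), and the strand counts summed to 1.13 and 1.12 times their unstranded counts, so their levels are uncertain.

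**Figure D1:**
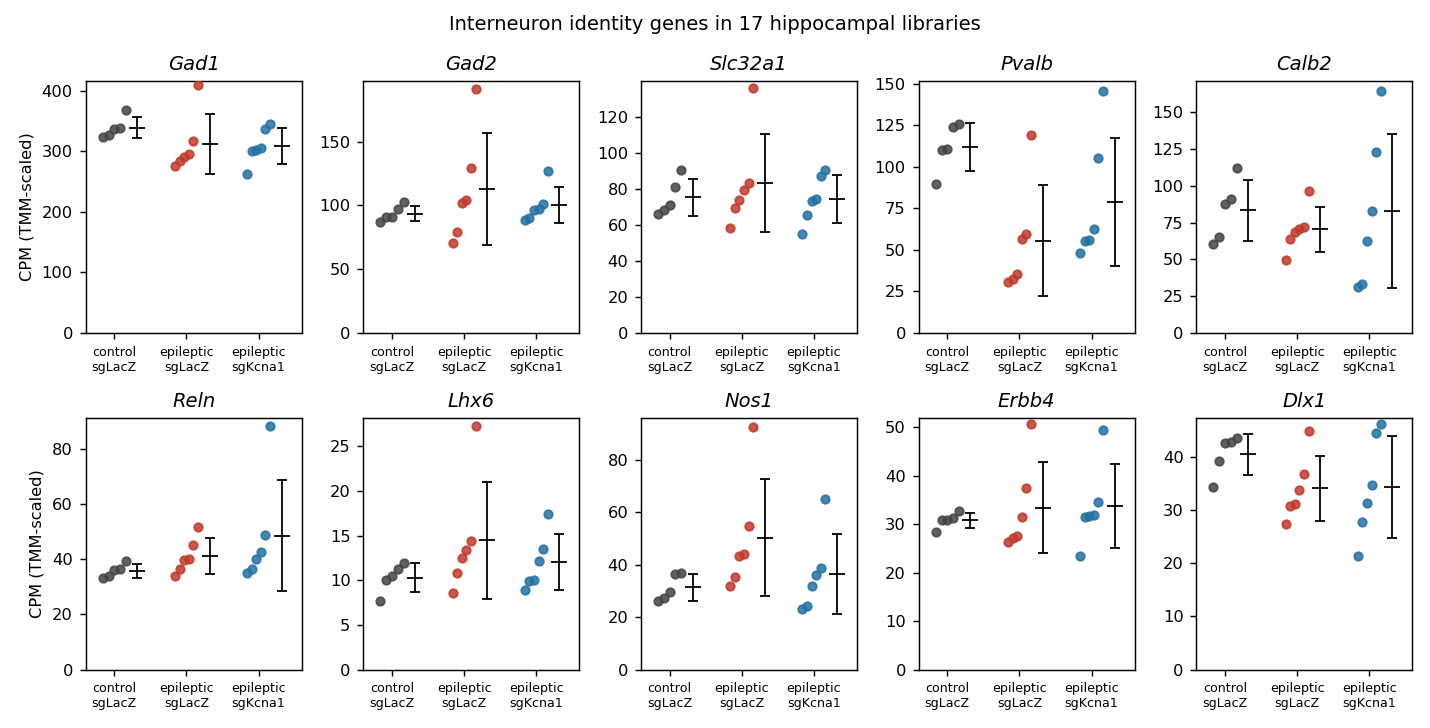
Levels of the 10 genes in TMM-scaled CPM (vertical axes, 1 panel per gene) in control sgLacZ (n = 5), epileptic sgLacZ (n = 6) and epileptic libraries labelled sgKcna1 (n = 6). Points are libraries, and bars are the mean and SD. The groups overlap for every gene, and 5 of the 6 epileptic sgLacZ points for Pvalb lie below the lowest control point.

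The enzymes of GABA synthesis came first. Gad1, which encodes the larger form of glutamate decarboxylase and lies at chr2:70561303-70602014 (GRCm38.p6, as are all positions below), was at 324, 327, 337, 339 and 368 CPM in control, between 276 and 409 CPM (median 293) in epileptic sgLacZ and between 263 and 346 CPM (median 304) in the libraries labelled sgKcna1. Epileptic sgLacZ libraries were below every control in 5 of 6 and above every control in 1, replicate 4. Gad2, the smaller and mostly synaptic form (chr2:22621015-22693877), was at 87.0, 90.7, 90.8, 97.1 and 102 CPM in control, between 70.5 and 191 CPM (median 103) in epileptic sgLacZ and between 88.6 and 127 CPM (median 96.6) in the libraries labelled sgKcna1. Control values of Gad2 lay inside the range of the epileptic sgLacZ values, whose coefficient of variation was 38.8% against 6.51% in control.

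Slc32a1, the vesicular transporter that loads GABA into synaptic vesicles (chr2:158607260-158615747), was at 66.2, 68.2, 71.1, 81.4 and 90.6 CPM in control, between 58.1 and 136 CPM (median 76.8) in epileptic sgLacZ and between 55.0 and 90.5 CPM (median 73.9) in the libraries labelled sgKcna1. The groups overlapped, and only epileptic sgLacZ replicate 4 was above the controls. The coefficient of variation of Gad1 was 5.20% in control, 15.8% in epileptic sgLacZ and 9.54% in the libraries labelled sgKcna1, and replicate 4 was the highest epileptic sgLacZ library.

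Dlx1 and Lhx6 encode homeodomain transcription factors that specify interneurons, Dlx1 across classes and Lhx6 in those born in the medial ganglionic eminence. Dlx1 (chr2:71528113-71533981) was at 34.3, 39.2, 42.6, 42.6 and 43.6 CPM in control, between 27.3 and 44.8 CPM (median 32.4) in epileptic sgLacZ and between 21.4 and 46.1 CPM (median 33.0) in the libraries labelled sgKcna1. Lhx6 (chr2:36081950-36105992) was at 7.72, 10.1, 10.5, 11.3 and 12.0 CPM in control, between 8.61 and 27.2 CPM (median 13.0) in epileptic sgLacZ and between 8.97 and 17.4 CPM (median 11.1) in the libraries labelled sgKcna1. For Dlx1, 4 of 6 epileptic sgLacZ libraries were below every control and 1 was above. For Lhx6, 4 of 6 were above every control and none below.

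Pvalb encodes parvalbumin, the calcium-binding protein of fast-spiking basket and axo-axonic cells (chr15:78191112-78206400). It was at 89.8, 110.3, 111, 124 and 126 CPM in control, between 30.4 and 119 CPM (median 46.0) in epileptic sgLacZ and between 47.9 and 145 CPM (median 59.3) in the libraries labelled sgKcna1. Of the epileptic sgLacZ libraries 5 of 6 were below every control, and the remaining library, replicate 5 at 119 CPM, lay among the controls. Of the libraries labelled sgKcna1, 4 of 6 were below every control and 1, replicate 3, was above.

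Calb2 encodes calretinin, a calcium-binding protein of interneurons that contact other interneurons and also of mossy cells in the mouse (chr8:110142526-110168212). It was at 60.5, 65.5, 87.6, 91.1 and 112 CPM in control, between 49.8 and 96.3 CPM (median 69.9) in epileptic sgLacZ and between 31.1 and 164 CPM (median 72.7) in the libraries labelled sgKcna1. The groups overlapped widely. Markers of hilar mossy cells, 3 tested, summed to 162 to 189 CPM in control and 125 to 179 CPM in epileptic sgLacZ. In the libraries labelled sgKcna1 they summed to 144 to 249 CPM. Most of each sum was Ociad2, at 153 to 178, 112 to 169 and 133 to 236 CPM in the same order. The medians were 7.117, 7.517 and 7.496 CPM for Calcrl and 3.477, 3.486 and 3.532 CPM for Drd2. The part of mossy cells in the Calb2 values was not tested. Within the libraries labelled sgKcna1 the coefficient of variation of Calb2 was 63.4%, with 2 libraries below and 2 above every control, the highest being replicate 12.

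Reln encodes reelin, an extracellular protein made by neurogliaform and other dendrite-targeting interneurons and by Cajal-Retzius cells (chr5:21884454-22344705). It was at 33.1, 33.9, 36.2, 36.3 and 39.2 CPM in control, between 33.9 and 51.8 CPM (median 39.8) in epileptic sgLacZ and between 34.8 and 88.2 CPM (median 41.2) in the libraries labelled sgKcna1. In each epileptic group 4 of 6 libraries were above every control and none was below. The 3 markers of Cajal-Retzius cells that passed the filter summed to 3.79 to 6.82 CPM in control, 4.07 to 11.9 CPM in epileptic sgLacZ and 2.72 to 6.35 CPM in the libraries labelled sgKcna1, and their part in the Reln values was not tested.

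Nos1 encodes the neuronal nitric oxide synthase of ivy and neurogliaform cells (chr5:117866839-117958840). It was at 26.4, 27.3, 29.8, 36.6 and 37.0 CPM in control, between 31.9 and 92.6 CPM (median 43.9) in epileptic sgLacZ and between 23.1 and 65.0 CPM (median 34.1) in the libraries labelled sgKcna1. In epileptic sgLacZ mice 4 of 6 libraries were above every control, and the other 2 lay among the controls. The libraries labelled sgKcna1 lay on both sides, 2 below and 2 above every control.

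Erbb4, the neuregulin receptor of interneurons (chr1:68031884-69108576), was at 28.3, 30.8, 31.0, 31.2 and 32.7 CPM in control, between 26.4 and 50.6 CPM (median 29.5) in epileptic sgLacZ and between 23.4 and 49.4 CPM (median 31.7) in the libraries labelled sgKcna1. The coefficient of variation was 5.11% in control, the smallest of the 10 genes there, and 28.0% and 25.4% in the epileptic groups. For 9 of the 10 genes it was larger in epileptic sgLacZ than in control libraries, the exception being Calb2, a count that was not tested. The share over all genes was not computed. Over all genes, pairs of epileptic sgLacZ libraries differed by a chi-square per degree of freedom of 8.67 to 220. For pairs of control libraries the range was 10.0 to 34.4, so a wider spread is not particular to the 10 genes.

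**Figure D2:**
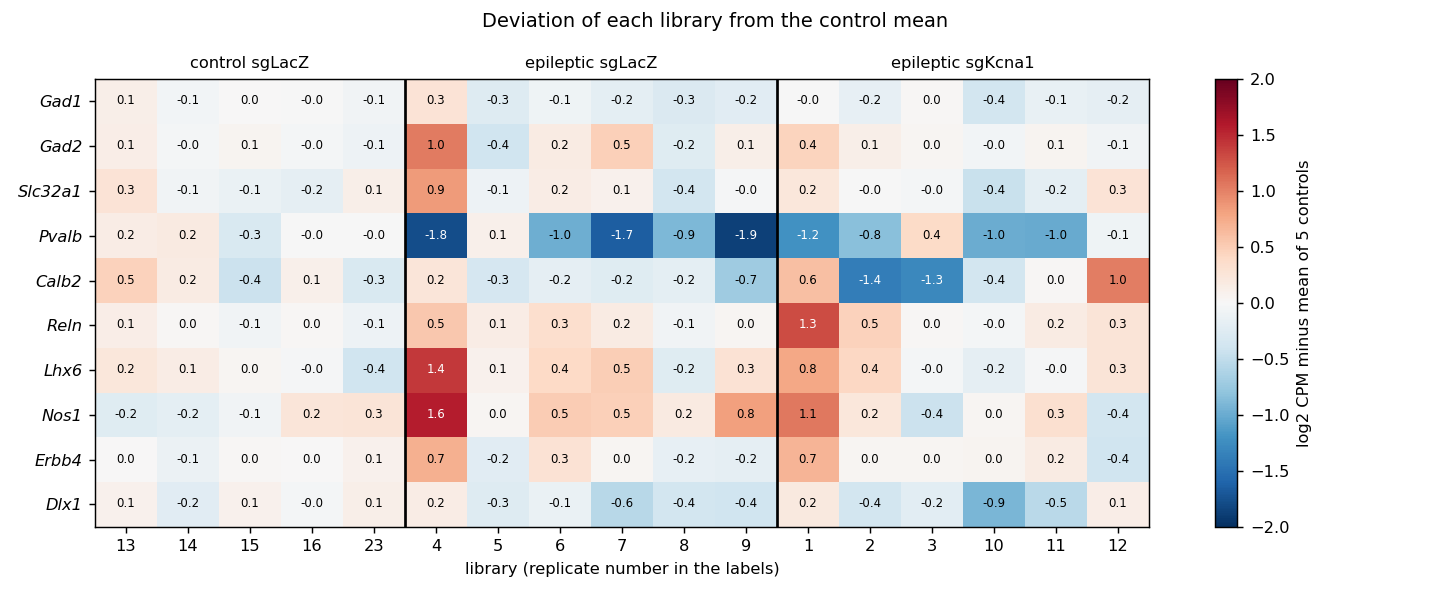
Heat map of log2 CPM minus the mean of the 5 control libraries, for the 10 genes (vertical axis) in each of the 17 libraries (horizontal axis, by group and replicate). Red is above and blue below the control mean. Pvalb is blue in 5 of 6 epileptic sgLacZ libraries, and in replicate 4 Nos1 is at 1.57 and Pvalb at -1.77.

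To test whether epilepsy changed these genes, epileptic sgLacZ was compared with control. Pvalb had a log2 fold change of -1.01 (SE 0.33, 95% interval -1.70 to -0.32, unadjusted P = 0.00638, adjusted P = 0.0524, edgeR). Nos1 had a log2 fold change of 0.68 (SE 0.27, interval 0.12 to 1.25, unadjusted P = 0.0208, adjusted P = 0.0878, edgeR). With edgeR 0 of the 10 genes passed the threshold, against 11% of the 17615 genes tested (7.26% higher and 3.76% lower). That share was 0 without epileptic sgLacZ replicate 4, 7 or 9 or without control replicate 13, 14, 16 or 23. At an unadjusted P under 0.05 the count was 2 of the 10, Nos1 higher and Pvalb lower, against 34.7% of all genes (18.8% higher and 15.9% lower).

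Other tools called some of them. DESeq2 called 1 of the 10, Pvalb (log2 fold change -1.02, adjusted P = 0.0193), against 22.2% of the genes it tested, and limma voom with quality weights called 2, Pvalb (-1.36, adjusted P = 0.000527) and Nos1 (0.57, adjusted P = 0.0214), against 41.4%. Values of the groups were free of overlap for 0 of the 10 genes and for 4.39% of all genes.

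For the GABA-making machinery no difference passed the threshold. Gad1 had a log2 fold change of -0.12 (SE 0.10, interval -0.33 to 0.10, adjusted P = 0.425), Gad2 of 0.27 (SE 0.19, interval -0.13 to 0.67, adjusted P = 0.316) and Slc32a1 of 0.14 (SE 0.18, interval -0.23 to 0.52, adjusted P = 0.585, all edgeR). With the counts of both strands summed, Slc32a1 was at 0.38 (adjusted P = 0.192). The interval for Gad1 was the narrowest of the 10 genes. Lhx6 had a log2 fold change of 0.49 (SE 0.24, interval -0.02 to 1.01, adjusted P = 0.157) and Dlx1 of -0.25 (SE 0.17, interval -0.60 to 0.10, adjusted P = 0.301). The values of Reln, Calb2 and Erbb4 were 0.21 (adjusted P = 0.462), -0.24 (adjusted P = 0.629) and 0.12 (adjusted P = 0.656). Of the 10 genes 6 had a positive and 4 a negative fold change, with a median of 0.13 against 0.02 over all genes.

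The result for Pvalb turned on single libraries. Without epileptic sgLacZ replicate 5 its log2 fold change was -1.39 (adjusted P = 0.00366) and that of Nos1 was 0.79 (adjusted P = 0.0337), so that both passed the threshold, as did 31.3% of all genes in that fit. Replicate 12 of the libraries labelled sgKcna1 enters the comparison only through steps that use all libraries. These are the filter, the scaling, the shared estimate of spread and the adjustment over all genes. Without replicate 12 Pvalb also passed the threshold (-1.02, adjusted P = 0.0316), as did 27.1% of all genes. Over all 17 fits with 1 library left out, the log2 fold change of Pvalb ran from -1.39 to -0.89. Without epileptic sgLacZ replicate 4 and sgKcna1 replicate 12 together, a setting added after the data had been seen, Pvalb was at -0.90 (adjusted P = 0.0633) Nos1 at 0.42 (adjusted P = 0.171), Lhx6 at 0.21 (adjusted P = 0.451), Gad2 at 0.05 (adjusted P = 0.820) and Gad1 at -0.21 (adjusted P = 0.0635), and Slc32a1 and Erbb4 changed sign (-0.05 and -0.04). With the share of unmapped reads as a covariate Pvalb was at -0.72 (adjusted P = 0.123) and Nos1 at 0.31 (adjusted P = 0.411).

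**Figure D3:**
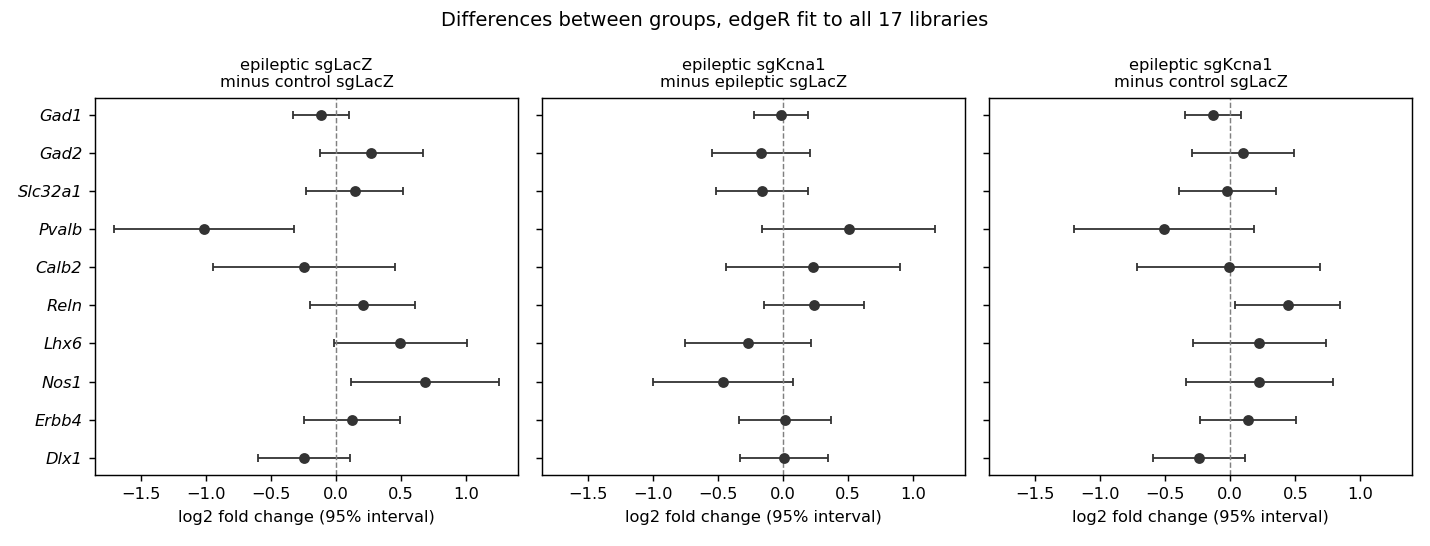
Log2 fold change of each of the 10 genes (vertical axis) in the 3 comparisons (panels), with points for the estimate and lines for the 95% interval from edgeR. In epileptic sgLacZ against control, the intervals of Pvalb and Nos1 leave out 0. In the comparison of the epileptic groups every interval spans 0.

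Relative to Gad1 within the same library, the classes stood as follows. The ratio of Pvalb to Gad1 lay between 0.265 and 0.386 in control, between 0.0797 and 0.419 in epileptic sgLacZ (median 0.149) and between 0.143 and 0.421 in the libraries labelled sgKcna1 (median 0.210). The ratio of Reln to Gad1 lay between 0.100 and 0.111 in control and between 0.123 and 0.142 in epileptic sgLacZ, with no overlap, and between 0.105 and 0.262 in the libraries labelled sgKcna1. The ratio of Gad2 to Gad1 lay between 0.268 and 0.286 in control, between 0.248 and 0.468 in epileptic sgLacZ and between 0.278 and 0.378 in the libraries labelled sgKcna1. Reln was the only 1 of the 9 genes whose ratio to Gad1 did not overlap between epileptic sgLacZ and control, and over all other genes tested 9.91% did not overlap on that measure. In the comparisons of the libraries labelled sgKcna1 with epileptic sgLacZ and with control, the ratios overlapped for all 9 genes, against a background of 0.29% and 1.54% without overlap.

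Transcript length moved with these results. All tested genes with a known length were divided into quartiles, and the median log2 fold change in epileptic sgLacZ against control was -0.23 for the shortest (up to 1916 bases), 0.04 and 0.16 for the middle quartiles, and 0.21 for the longest (from 4452 bases). Genes past the threshold were 46 higher and 277 lower in the shortest quartile and 520 higher and 50 lower in the longest. Pvalb, at 977 bases, and Calb2, at 1430 bases, have the shortest transcripts of the 10 genes, and Erbb4 (12037), Reln (11702), Nos1 (9829) and Gad2 (5744) the longest. Both short genes had a negative fold change and all 4 long ones a positive fold change.

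The size of this length pattern differed between libraries. It was measured as the median log2 deviation from control of the longest quartile minus that of the shortest, and this gap was between -0.19 and 0.09 in control, between 0.08 and 0.29 in the libraries labelled sgKcna1, and 1.11, -0.12, 0.35, 0.71, 0.06 and 0.54 in epileptic sgLacZ replicates 4, 5, 6, 7, 8 and 9. Replicates 4, 7 and 9, with the widest gaps, had log2 deviations of Pvalb of -1.77, -1.66 and -1.87. Replicate 5, with a gap below 0, had a deviation of 0.10. Replicate 8, whose gap was within the range of the controls, had a deviation of -0.90, and replicate 6, with a gap of 0.35, had one of -0.97. In the libraries labelled sgKcna1, whose gaps differed little, the deviations of Pvalb ran from -1.21 (replicate 1) to 0.38 (replicate 3).

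**Figure D4:**
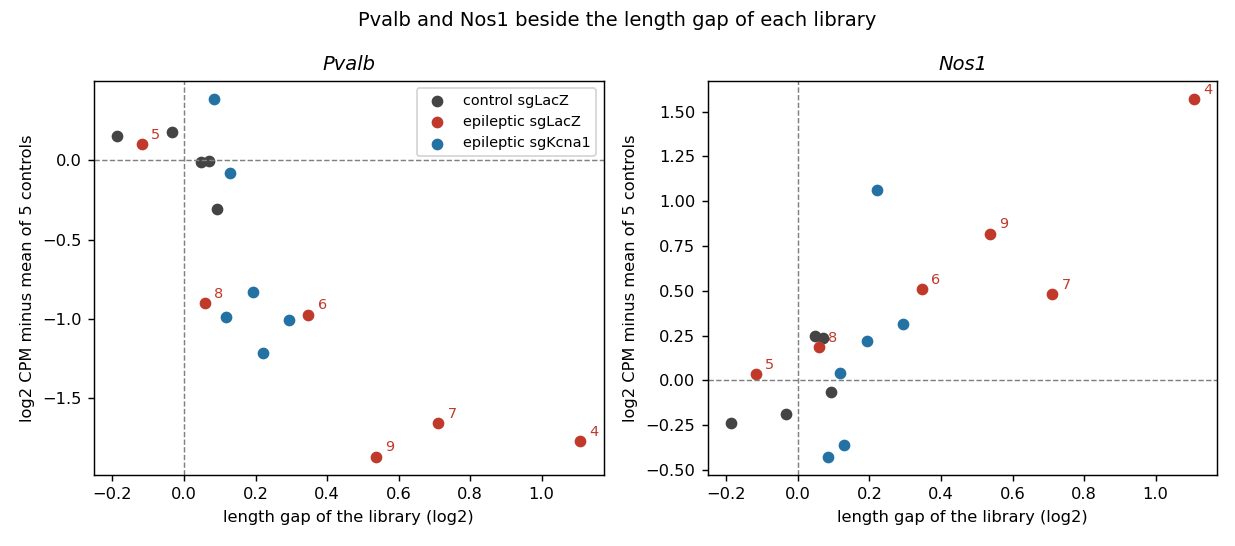
Log2 CPM minus the control mean for Pvalb and Nos1 (vertical axes, 1 panel each) against the gap between the longest and shortest transcript quartiles of the same library (horizontal axis, log2), for 17 libraries coloured by group, with epileptic sgLacZ libraries numbered. Pvalb is lowest in replicates 4, 7 and 9, whose gaps are widest, and at -0.90 in replicate 8, whose gap is 0.06.

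An offset that removes each library's trend with transcript length was added to the fit after the data had been seen. With it, Pvalb passed the threshold (-0.80, adjusted P = 0.0476), as did Gad1 (-0.31, adjusted P = 0.0425), while Nos1 was at 0.38 (adjusted P = 0.203), edgeR in each case. The 2 of 10 genes called in this fit stand beside 13.8% of all genes with a length. Gad2, Slc32a1, Reln and Erbb4 then changed sign, to values between -0.16 and 0 on the log2 scale, and none of these passed the threshold. The direction of these 4 genes therefore depended on the treatment of length, whereas Pvalb, Gad1, Dlx1 and Calb2 had a negative and Nos1 and Lhx6 a positive fold change with and without the offset.

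**Figure D5:**
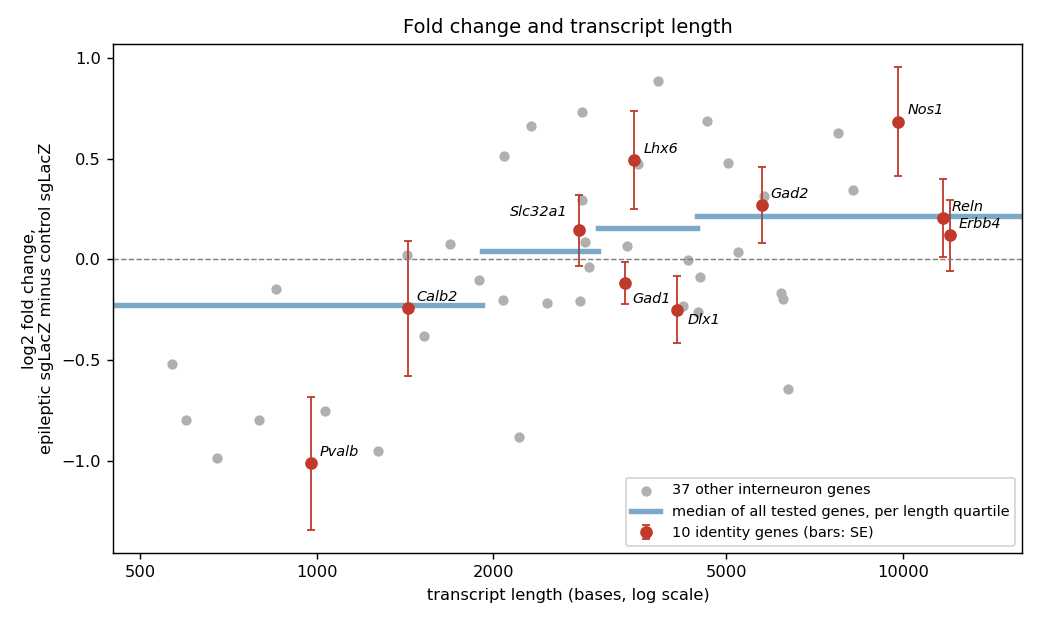
Log2 fold change in epileptic sgLacZ against control (vertical axis) plotted against transcript length in bases (horizontal axis, log scale) for the 10 genes (named, with SE bars), 37 other interneuron genes (grey) and the quartile medians of all tested genes (blue). The quartile medians run from -0.23 to 0.21, and Pvalb lies further below 0 than the median of the shortest quartile.

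To ask whether the libraries labelled sgKcna1 differed from epileptic sgLacZ, the epileptic groups were compared with each other. With edgeR 0 of the 10 genes passed the threshold, as did 0% of all genes, and at an unadjusted P under 0.05 the count was 0 of the 10 against 19.2% of all genes (8.69% higher and 10.5% lower). DESeq2 and limma voom also called 0 of the 10, and 0.812% and 0.0681% of all genes. Pvalb had a log2 fold change of 0.50 (SE 0.32, interval -0.16 to 1.17, adjusted P = 0.355) and Nos1 of -0.46 (SE 0.26, interval -1.0 to 0.07, adjusted P = 0.309, edgeR). Both have the opposite sign to that against control, but epileptic sgLacZ libraries enter both comparisons.

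The other 8 genes had log2 fold changes between -0.27 (Lhx6, adjusted P = 0.493) and 0.24 (Reln, adjusted P = 0.450) in this comparison. Gad1 stood at -0.02 (SE 0.10, interval -0.22 to 0.19), a narrow interval, while that of Calb2 at 0.23 (SE 0.32) ran from -0.44 to 0.90. Gad2 and Slc32a1 were both at -0.17 (adjusted P = 0.581 and 0.572), and Erbb4 and Dlx1 at 0.02 and 0.01 (adjusted P = 0.965 and 0.981). Without epileptic sgLacZ replicate 5, Pvalb passed the threshold (0.88, adjusted P = 0.0492), as did 8.54% of all genes in that fit. Without epileptic sgLacZ replicate 4 and sgKcna1 replicate 12 together, Pvalb was at 0.29 (adjusted P = 0.800), Nos1 at -0.11 (adjusted P = 0.886) and the other 8 genes between -0.04 (Slc32a1) and 0.34 (Reln), with 0 of the 10 past the threshold. The median over the 10 genes was -0.00 against -0.01 over all genes, and 0 of the 10 genes and 0.483% of all genes had groups without overlap.

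Against control, the libraries labelled sgKcna1 again gave 0 of the 10 genes past the threshold with edgeR, with 0% of all genes. At an unadjusted P under 0.05 the count was 1 of the 10, Reln, which was higher, against 6.77% of all genes (4.29% higher and 2.48% lower), and DESeq2 and limma voom called 0 of the 10, against 0.222% and 0.403%. Reln had a log2 fold change of 0.44 (SE 0.19, interval 0.04 to 0.85, unadjusted P = 0.0343, adjusted P = 0.711, edgeR), and replicate 1, at 88.2 CPM, was the highest library. Without it the log2 fold change of Reln was 0.18 (adjusted P = 0.936). Pvalb was at -0.51 (SE 0.33, interval -1.20 to 0.18, adjusted P = 0.771), with 4 of 6 libraries below every control. Gad1 was at -0.13 (SE 0.10, interval -0.35 to 0.08, adjusted P = 0.798), also with 4 of 6 below. The remaining genes lay between -0.24 (Dlx1, adjusted P = 0.782) and 0.22 (Lhx6, adjusted P = 0.843, and Nos1, adjusted P = 0.856). Calb2 was at -0.01 with all libraries and at -0.33 without replicate 12 (adjusted P = 0.995 and 0.550). Without epileptic sgLacZ replicate 4 and sgKcna1 replicate 12 together, 0 of the 10 genes passed the threshold, Pvalb was at -0.62 (adjusted P = 0.264) and Reln at 0.47 (adjusted P = 0.171). The median over the 10 genes was 0.04 against 0.02, and 0 of the 10 and 1.14% of all genes did not overlap. The control libraries are shared with the first comparison.

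Other genes of interneurons were read from a wider list of 40, of which 37 were found and tested. In epileptic sgLacZ against control, 1 was higher and 2 were lower with edgeR, and 34 did not pass the threshold, that is, 8.11% of the 37 were called against 11% of all genes. Kcnc1, a potassium channel of fast-spiking cells, rose (log2 fold change 0.63, SE 0.17, adjusted P = 0.0369). Cck, the peptide of a class of basket cells that pyramidal cells also express, fell (-0.80, SE 0.24, adjusted P = 0.0426), and so did Id2, a helix-loop-helix regulator (-0.95, SE 0.24, adjusted P = 0.0333). Id2 was at 167, 199, 203, 228 and 234 CPM in control and between 58.0 and 164 CPM in epileptic sgLacZ, with no overlap. That held for 1 of the 37 genes and for 4.39% of all genes. Each of these 3 calls was lost without epileptic sgLacZ replicate 4, 7 or 9 or any 1 of the controls, and that of Cck also without epileptic sgLacZ replicate 6 or sgKcna1 replicate 3 or 10, with adjusted P values of up to 0.0923 for Id2, 0.0986 for Kcnc1 and 0.104 for Cck. With the inferred sex as a covariate none of the 3 passed the threshold (adjusted P = 0.0507 for Id2, 0.0548 for Kcnc1 and 0.0602 for Cck), and with the share of unmapped reads only Id2 did (-0.67, adjusted P = 0.0305, against 0.39 and 0.0938 for Kcnc1 and -0.62 and 0.0924 for Cck).

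Sst, with Cck among the most abundant genes of that list, had a log2 fold change of -0.80 (SE 0.25, adjusted P = 0.0505, edgeR). It encodes somatostatin, the peptide of a large class of dendrite-targeting cells, and 5 of 6 epileptic sgLacZ libraries were below every control. The exception was replicate 5, at 810.5 CPM, the same library that stood among the controls for Pvalb. With the transcript length offset the values were -0.38 for Sst (adjusted P = 0.0715), 0.35 for Kcnc1 (adjusted P = 0.0432), -0.50 for Cck (adjusted P = 0.0357) and -0.82 for Id2 (adjusted P = 0.0296). The median over the 37 genes was -0.09, and at an unadjusted P under 0.05 the counts were 5 higher and 8 lower, or 35.1% against 34.7% of all genes. Of the 11 genes in the shortest transcript quartile 9 had a negative fold change (median -0.52), against 5 of the 11 in the longest (median 0.04). In the other 2 comparisons 0 of the 37 passed the threshold with edgeR, as did no gene at all, and at an unadjusted P under 0.05 the counts were 6 higher and 5 lower between the epileptic groups (29.7% against 19.2% of all genes) and 2 and 1 against control (8.11% against 6.77%). DESeq2 and limma voom called 10 and 15 of the 37 in epileptic sgLacZ against control, beside 22.2% and 41.4% of all genes. Between the epileptic groups they called 2 and 1, beside 0.812% and 0.0681%, and against control the libraries labelled sgKcna1 gave 0.

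Markers of other cells that the tissue could hold were read beside these values. Between epileptic sgLacZ and control with edgeR, 1 of 8 markers of glutamatergic neurons passed the threshold (Slc17a7, 0.77, adjusted P = 0.0366), 1 of 7 general neuronal markers (Nefl, -0.34, adjusted P = 0.0403), 2 of 6 astrocyte markers (Gfap, 0.60, adjusted P = 0.0447, and Aldh1l1, 0.33, adjusted P = 0.0391), 1 of 6 microglial markers (Csf1r, 0.38, adjusted P = 0.0356) and 1 of 5 striatal markers (Pde10a, 0.58, adjusted P = 0.0349), beside 11% of all genes. Within these lists the fold changes were positive and negative for 4 and 4 glutamatergic, 1 and 6 general neuronal, 6 and 0 astrocyte, 2 and 4 microglial and 4 and 1 striatal markers. None of the markers tested for Cajal-Retzius cells (3), hilar mossy cells (3), thalamic neurons (5), oligodendrocytes (6), choroid plexus (5) and endothelial cells (4) passed it, and in the other comparisons none of any list did. The general neuronal markers summed to 5630 to 6035 CPM in control, 5292 to 5689 CPM in epileptic sgLacZ and 5478 to 6377 CPM in the libraries labelled sgKcna1, and the glutamatergic markers to 7166 to 8207, 6687 to 7891 and 6736 to 8451 CPM. Astrocyte markers summed to 1603 to 1767, 1794 to 2246 and 1724 to 2156 CPM in the same order, with no overlap between control and epileptic sgLacZ. Singly, 1 of the 6 astrocyte markers did not overlap between these groups, against 4.39% of all genes. Microglial markers summed to 281 to 330, 243 to 419 and 296 to 474 CPM. Striatal markers, 5 tested, summed to 92.1 to 142 CPM in control, 138 to 185 CPM in epileptic sgLacZ and 105 to 176 CPM in the libraries labelled sgKcna1, and choroid plexus markers varied from 291 to 12512 CPM over all libraries. No marker of these lists was at 0 reads in a group. The part of these cells in the values of the 10 genes was not tested.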

How the data were processed

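Hippocampal polyA RNA of 17 samples was sequenced, 1 library each. The authors aligned reads with STAR 2.7 to mm10 (submitters' processing notes) and deposited raw counts of reads per gene, with no normalization, in 55450 Ensembl genes for either strand and for each strand. The labels name a kit that does not mark strand and the methods of the study a stranded one. The ratio between strands was 0.994 to 0.998, so unstranded counts were used. Symbols came from a gene name table (89.7% of tested genes), coordinates from RefSeq on GRCm38.p6, and transcript lengths from the longest coding transcript of GENCODE M1 (mm9), available for 83% of tested genes (14619).

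From these counts, R 4.3.3 with edgeR 4.0.16 was used to filter low genes (filterByExpr, 17615 kept), to scale libraries (TMM) and to fit 1 quasi-likelihood model with a coefficient per group over all 17 libraries. Each comparison was tested by a two-sided F test, with P-values adjusted by Benjamini-Hochberg over the 17615 genes and a threshold of 0.05. The study used DESeq2, which together with limma 3.58.1 (voom), DESeq2-type size factors, no filter, summed strands, the unmapped share or the inferred sex as covariate, only the 2 groups compared and each library left out served as alternatives (DESeq2 1.42.0). A fit without epileptic sgLacZ replicate 4 and sgKcna1 replicate 12 and a transcript length offset (loess, span 0.5) were added after the data had been seen. The genes and lists were chosen with earlier results of these data known. The 10 genes and Kcna1 are always named, and from the wider interneuron list the 3 highest by mean CPM, 1 of which is not reported here, and up to 3 past the threshold. Of the marker lists only genes past the threshold are named, except that all tested markers of hilar mossy cells are.

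Libraries had 11839240 to 28311328 reads in genes. The floor of 3 reads covers counting error only, since the reads carry no molecular identifiers. The labels do not say that samples are separate animals, so P-values measure the spread between these samples. Same-group libraries differed by more than sampling noise in all 40 pairs (chi-square per degree of freedom 8.67 to 220), so each was counted once. The steps were tested on simulated counts with the same spread for every gene and library. The simulation held no library that stood apart and no trend with transcript length, so it does not cover those features of the data.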

Additional observations from a re-analysis of the deposited data

Results flagged for a closer look

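Of 30 combinations of gene and group, 7 held a library that stood apart from the rest of its group by Dixon's test. Chance alone flags about 1 in 20 such groups. The 30 combinations are not independent, since several flags fall on the same library, and the share over all genes was not computed. The count is therefore not a result about these genes in particular. In epileptic sgLacZ, replicate 4 stood above the others for Gad1 (409 CPM, the next library at 318 CPM), Slc32a1 (136 CPM, the next at 83.3 CPM) and Lhx6 (27.2 CPM, the next at 14.4 CPM). Replicate 5 of the same group stood above the others for Pvalb (119 CPM, the next at 59.6 CPM). In the libraries labelled sgKcna1, replicate 1 stood above the others for Gad2 (127 CPM, the next at 101 CPM), Reln (88.2 CPM, the next at 48.9 CPM) and Nos1 (65.0 CPM, the next at 38.7 CPM).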

How the results depend on the processing

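No paired analysis was possible because the groups share no replicate numbers. In epileptic sgLacZ against control, the calls among the 10 genes rose from 0 to 1 (Pvalb) with DESeq2, without the filter, with summed strands and with only the 2 groups, and to 2 with voom and with the length offset (Pvalb and Nos1, and Pvalb and Gad1). The shares of all genes called in these 6 fits were 22.2%, 4.53%, 14.2%, 17.9%, 41.4% and 13.8%. Pvalb was past the threshold in 6 of 10 alternatives (log2 fold change -1.36 to -0.72, adjusted P 0.000527 to 0.123). Calls over all genes, 1940 in the main fit, were 3686 with DESeq2, 7301 with voom, 428 with the unmapped share, 516 with sex, 3045 with only the 2 groups and 3106 without replicates 4 and 12. Between the epileptic groups they were 143 with DESeq2, 1 without the filter and 12 with voom, and between sgKcna1 and control 39 with DESeq2, 71 with voom, 266 with the unmapped share and 88 without replicates 4 and 12. With 1 library left out, calls over all genes ran from 0 (without epileptic sgLacZ 4, 7 or 9 or control 13, 14, 16 or 23) to 5526 (without epileptic sgLacZ 5), against 4777 without sgKcna1 12, and in the other comparisons from 0 to 1508 (without epileptic sgLacZ 5) and from 0 to 14 (without sgKcna1 12). Among the 10 genes they ran from 0 to 2, 0 to 1 and 0 to 0.

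With another setting, signs turned in 25 estimates, each of a gene in a comparison, none past the threshold. Against control, epileptic sgLacZ gave Calb2 0.057 and Erbb4 -0.10 with the unmapped share, Gad2 -0.013, Slc32a1 -0.0019, Reln -0.045 and Erbb4 -0.16 with the length offset, and Slc32a1 -0.053 and Erbb4 -0.041 without replicates 4 and 12. Between the epileptic groups the values were Erbb4 -0.0049 and Dlx1 -0.014 without the filter, Dlx1 -0.082 with summed strands, Gad1 0.049, Gad2 0.086, Calb2 -0.18 and Dlx1 -0.050 with the unmapped share, Gad1 0.012, Calb2 -0.15 and Dlx1 -0.10 with voom, Gad1 0.13 and Gad2 0.034 with the length offset, and Gad1 0.082, Gad2 0.074 and Lhx6 0.0026 without replicates 4 and 12. Between sgKcna1 and control they were Slc32a1 0.043 with summed strands and Calb2 0.099 with the length offset. The cause was not tested.

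With 1 library left out, signs turned in 31 estimates of that kind, none past the threshold. The values ran, in epileptic sgLacZ against control, from -0.050 to 0.23 for Slc32a1 and -0.038 to 0.18 for Erbb4. Between the epileptic groups they ran from -0.050 to 0.079 for Gad1, -0.28 to 0.047 for Gad2, -0.25 to 0.033 for Slc32a1, -0.085 to 0.40 for Calb2, -0.022 to 0.32 for Reln, -0.41 to 0.012 for Lhx6, -0.13 to 0.17 for Erbb4 and -0.093 to 0.11 for Dlx1. Between sgKcna1 and control they ran from -0.093 to 0.052 for Slc32a1, -0.33 to 0.16 for Calb2, -0.023 to 0.33 for Nos1 and -0.0087 to 0.21 for Erbb4. The lowest count behind a value of the 10 genes was 131 reads. With 5 or 6 libraries a group the intervals for Pvalb, Calb2 and Nos1 spanned more than 1 on the log2 scale in every comparison. That of Lhx6 did so in both comparisons with control.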

Other observations

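Neuropeptides of interneurons outside the 10 genes gave values between the epileptic groups that did not pass the threshold with edgeR. Vip, Npy, Tac1, Sst and Cort were chosen after their values had been seen. Vip, the peptide of interneurons that contact other interneurons, was higher than in every epileptic sgLacZ library in 5 of 6 libraries labelled sgKcna1 (32.9 ± 7.02 CPM, SD, n = 6, against 19.4 ± 4.36 CPM, SD, n = 6). Its log2 fold change was 0.76 (SE 0.16, adjusted P = 0.213, edgeR), against 0.38 relative to control (SE 0.17, adjusted P = 0.711, edgeR). DESeq2 and limma voom called Vip between the epileptic groups (adjusted P = 0.00866 and 0.0414), beside 0.812% and 0.0681% of all genes. Npy had a log2 fold change of 0.82 (SE 0.26, adjusted P = 0.213, edgeR) between the epileptic groups, and replicate 12, at 246 CPM, was the highest library. Without replicate 12 the value was 0.47 (SE 0.19, adjusted P = 0.286, edgeR). Tac1 had one of 0.88 (SE 0.27, adjusted P = 0.213, edgeR), Sst one of 0.60 (SE 0.24, adjusted P = 0.226, edgeR) and Cort one of 0.55 (SE 0.31, adjusted P = 0.314, edgeR). Libraries labelled sgKcna1 above every epileptic sgLacZ library were 2 for Npy, 2 for Tac1, 1 for Sst and 0 for Cort. Of further peptides on the wider list, Cck was at 0.44 (adjusted P = 0.282) and Pnoc at 0.04 (adjusted P = 0.876, both edgeR). In epileptic sgLacZ against control Pnoc was at -0.10 (adjusted P = 0.605, edgeR).

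Epileptic sgLacZ against control gave negative values for the 5 peptides Sst, Vip, Npy, Tac1 and Cort, none past the threshold with edgeR. They were -0.80 for Sst (adjusted P = 0.0505), -0.38 for Vip (adjusted P = 0.110), -0.52 for Npy (adjusted P = 0.182), -0.75 for Tac1 (adjusted P = 0.0739) and -0.99 for Cort (adjusted P = 0.0523, all edgeR). DESeq2 called Sst, Cort and Tac1 (adjusted P = 0.0199, 0.0203 and 0.0416), beside 22.2% of the genes it tested. Limma voom called all 5 (adjusted P of up to 0.0257, for Vip), beside 41.4% of all genes. The 5 peptides have transcripts of the shortest length quartile, and the epileptic sgLacZ libraries enter both comparisons. With the transcript length offset the values were -0.38 for Sst, -0.31 for Vip, -0.02 for Npy, -0.53 for Tac1 and -0.63 for Cort (adjusted P = 0.0715, 0.124, 0.952, 0.141 and 0.0882).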
